A study of Mus musculus with 12 samples.

Results

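Heat shock proteins and chaperones were followed in early thymic progenitors of mice, the first cells of the T lineage after entry into the thymus. The members are the genes whose symbols belong to the Hsp70, Hsp90, Hsp110, Hsp60, Hsp10 and small heat shock protein families or to the numbered Dnaja, Dnajb and Dnajc families of J-domain co-chaperones, with the TRiC chaperonin subunits Tcp1 and Cct2 to Cct8 and the transcription factor Hsf1. By this rule 74 of the 13016 genes in the expression table were members. All cells came from C57BL/6 mice with both Ezh2 alleles and both Runx1 alleles floxed. The dKO_Flt3ITD group carried Rag1Cre and 1 Flt3 allele with an internal tandem duplication (ITD), which makes this cytokine receptor constitutively active. The dKO group carried Rag1Cre without the Flt3 allele, and for the control group no Cre is listed. Rag1Cre is a recombinase made under the control of Rag1, a gene that lymphoid progenitors switch on. Each group had 4 libraries of full-length messenger RNA, each made from 100 sorted cells. Levels are in RPKM, reads scaled to transcript length and sequencing depth, which allows genes of different length to be set side by side. The labels do not say that libraries of a group stand for different animals. The p-values below therefore describe library-to-library spread, which may be technical.

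Chaperones bind unfolded or partly folded proteins and keep them from aggregating until they reach their final shape. Hsp70 proteins do this in cycles of ATP hydrolysis that J-domain proteins start and Hsp110 proteins reset, Hsp90 acts later on signalling proteins such as kinases and receptors, and the ring-shaped chaperonins (TRiC in the cytosol, Hsp60 with Hsp10 in mitochondria) fold proteins inside a chamber. Some of these genes are always on in growing cells, while others are switched on by Hsf1 when cytosolic proteins unfold, or by the unfolded protein response when proteins misfold in the endoplasmic reticulum (ER).

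The sequence before the gene start can hold the letters that the stress-response factors recognise, and is shown for some of the members in which such letters were found. Hsf1 binds the heat shock element, searched here as GAANNTTC or TTCNNGAA. Both are their own reverse complement, so 1 search covers both strands. Of 32851 RefSeq promoter windows of the mouse (GRCm38.p6, 250 bases before to 50 bases after the start), 15.1% hold at least 1 such element. A gene can have more than 1 window, and of 27025 genes 17% have an element in any window. The counts of members below are by gene. Windows were found for 60 of the 74 members, and none for Hspa8, Hsp90ab1, Hsp90aa1, Cct4 or Hsf1. An element was present in the windows of 6 of 8 cytosolic stress-inducible genes, 0 of 7 constitutive cytosolic genes, 3 of 7 TRiC genes, 2 of 6 mitochondrial genes and 1 of 6 ER stress-inducible genes. These are matches of letters, with no binding data behind them. The first sequence is the 250 bases before the start of Hspa1a, the classical heat-inducible Hsp70 (chr17:34972157-34972406, minus strand), with the element in capitals.
Hspa1a: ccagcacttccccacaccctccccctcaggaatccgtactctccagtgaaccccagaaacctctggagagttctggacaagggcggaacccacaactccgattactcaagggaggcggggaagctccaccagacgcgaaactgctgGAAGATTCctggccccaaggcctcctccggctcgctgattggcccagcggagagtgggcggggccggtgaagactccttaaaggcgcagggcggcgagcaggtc

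The window of Hspa1b, the neighbouring copy, differs from that of Hspa1a at 4 of 300 positions and holds the same element. Stretches of 30 bases show the elements of other inducible members, Dnaja1 (chr4:40722333-40722362, plus strand), Dnajb4 (chr3:152193841-152193870, minus strand) and Hsph1 (chr5:149636351-149636380, minus strand), again in capitals.
Dnaja1: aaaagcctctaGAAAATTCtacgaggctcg
Dnajb4: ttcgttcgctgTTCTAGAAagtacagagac
Hsph1: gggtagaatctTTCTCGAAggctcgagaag

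Hspd1 and Hspe1, the mitochondrial Hsp60 and Hsp10, lie head to head, and their windows share 285 bases. In those shared bases 3 overlapping elements form 1 run (chr1:55088053-55088082, given on the plus strand, the strand of Hspe1). A shorter run, of 3 triplets (GAA or TTC) each 2 bases from the next and pointing the other way, was counted. It occurs in 0.603% of all windows and in 7.69% of the 78 windows of members. Counted by gene it occurs in 0.662% of all genes and in 4 of 60 members (6.67%), Hspd1 and Hspe1 among them through their shared bases.
Hspe1: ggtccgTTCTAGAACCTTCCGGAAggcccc

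The ER stress element was searched on both strands as CCAAT, any 9 bases and CCACG. It is in 0.119% of all windows and, counted by gene, in 0.137% of all genes. Of 6 ER stress-inducible genes with a window 3 hold the element, Hspa5, Hsp90b1 and Dnajc3. It is shown in capitals for Hspa5, which encodes the main Hsp70 of the ER (250 bases before the start, chr2:34771840-34772089, plus strand), and for Dnajc3 (chr14:118937821-118937850, plus strand).
Hspa5: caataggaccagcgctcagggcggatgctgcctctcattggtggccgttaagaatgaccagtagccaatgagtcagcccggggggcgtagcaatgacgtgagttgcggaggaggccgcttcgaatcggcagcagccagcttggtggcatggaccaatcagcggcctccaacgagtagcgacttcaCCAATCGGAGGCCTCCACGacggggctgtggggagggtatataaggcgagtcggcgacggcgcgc
Dnajc3: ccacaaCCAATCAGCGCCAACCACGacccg

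The whole reads behind the table totalled 13623436 to 33985972 per library. Control 1 stood apart, with a mean correlation of 0.786 with the other libraries, against 0.83 to 0.863 for the rest. Ezh2 had 16.4 ± 5.59 RPKM in dKO_Flt3ITD, 22.6 ± 5.87 in dKO and 39.8 ± 5.83 in control (SD, n = 4 each). Runx1 had 47.5 ± 11.8 RPKM in dKO_Flt3ITD, 46.4 ± 11.1 in dKO and 21.2 ± 4.57 in control. Since reads from exons that were not deleted enter this value, it does not check the deletion. Of 13 early progenitor markers 12 were in the table, and their summed level was 373 to 544 RPKM in dKO_Flt3ITD, 488 to 544 in dKO and 1040 to 2124 in control. Cd7 and Tcf7 fell in both mutant groups and Dntt in dKO_Flt3ITD, each against control, by limma with Benjamini-Hochberg adjustment at 0.05. Fold changes of the 12 markers were positive for 4 in dKO over control and for 3 in dKO_Flt3ITD over control. Markers of other cells were also present: 8 macrophage genes summed to 46.5 to 121 RPKM in dKO_Flt3ITD, 35.7 to 108 in dKO and 11.2 to 57.2 in control, and 6 granulocyte and monocyte genes to 71.0 to 1353 RPKM in dKO_Flt3ITD, 33.8 to 141.5 in dKO and 72.5 to 248 in control. The summed level of 2 mast cell and basophil genes was 187 to 566 RPKM in dKO_Flt3ITD, 118 to 319 in dKO and 16.2 to 122 in control, so that all dKO_Flt3ITD libraries lay above all controls. Later thymocyte genes (7) summed to 6.85 to 62.8 RPKM in dKO_Flt3ITD, 61.7 to 142 in dKO and 18.2 to 41.0 in control, with all dKO libraries above all controls. Dendritic cell genes (7) summed to 162 to 554 RPKM in dKO_Flt3ITD, 129 to 188 in dKO and 153 to 247 in control. For the B lineage, natural killer, erythroid and thymic stroma lists the ranges of both mutant groups overlapped that of control. By the same limma threshold Emr1 and Spic of the macrophage list and Ctsg of the granulocyte and monocyte list rose in dKO_Flt3ITD against control. In that comparison 0 genes of either list fell. The part of other cells in the values below was not tested. In bulk libraries fewer cells of a type and less RNA per cell cannot be told apart.

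No member passed the test in any comparison. Both mutant groups were set against the same 4 control libraries, so those comparisons are not independent. Of the 74 members, 65 reached 1 RPKM in 4 or more of the 12 libraries and were tested. In limma on log2(RPKM + 1) with Benjamini-Hochberg adjustment over 10690 genes, 0 of 65 members were called in dKO_Flt3ITD against control, where 1.5% of all tested genes were called. In dKO against control 0 of 65 were called, beside 1.02% of all genes, and in dKO_Flt3ITD against dKO 0 of 65, beside 0%. Voom on the recovered reads also called 0 members in each comparison. Of all 10690 genes it called 27 in dKO_Flt3ITD against control, 5 in dKO against control and 0 in dKO_Flt3ITD against dKO. With so few calls, 0 members adds little. At an unadjusted p under 0.05 there were 7 members (10.8%) in dKO_Flt3ITD against control, where 13.4% of all genes reached it, 2 (3.08%) in dKO against control, beside 9.18%, and 3 (4.62%) in dKO_Flt3ITD against dKO, beside 7.71%. None of these shares was above that of all genes. Dnajb14 alone passed in any alternative, in dKO_Flt3ITD against control without dKO_Flt3ITD 3, with a log2 fold change of 2.27 and a limma Benjamini-Hochberg adjusted p of 0.0380. All 4 libraries of one group lay beyond all 4 of the other for 2 members in dKO_Flt3ITD against control (7.67% of all genes did), Dnajc24 higher (4.16% of all genes) and Cct2 lower (3.51%), for 1 in dKO against control (6.3% of all genes), Dnajb14, which was higher (3.93%) and for 1 in dKO_Flt3ITD against dKO (4.28% of all genes), Dnajc2, which was higher (2.08%). The shares of all genes without overlap that were lower were 2.38% in dKO against control and 2.2% in dKO_Flt3ITD against dKO, with 0 members in each. Fold changes were positive for 28 of 65 members (43.1%) in dKO_Flt3ITD over control, beside 50.1% of all genes, for 23 (35.4%) in dKO over control, beside 50.7%, and for 35 (53.8%) in dKO_Flt3ITD over dKO, beside 50.3%.

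How tightly the data bound a difference varied with the member. The 95% interval of the fold change on the RPKM + 1 scale lay between 0.5 and 2 for 15 of 65 members in dKO_Flt3ITD against control, or 23.1%, where 8.26% of all genes were so bounded. In dKO against control this held for 16 members (24.6%), beside 11.7% of all genes, and in dKO_Flt3ITD against dKO for 17 (26.2%), beside 9.64%. For the other members the data did not bound a change to within that range. The spread within groups is smaller for genes of higher level. Members with a mean above 100 RPKM were 18 of 65, against 956 of the 10690 genes tested. The shares above were not compared at like level.

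**Figure D1:**
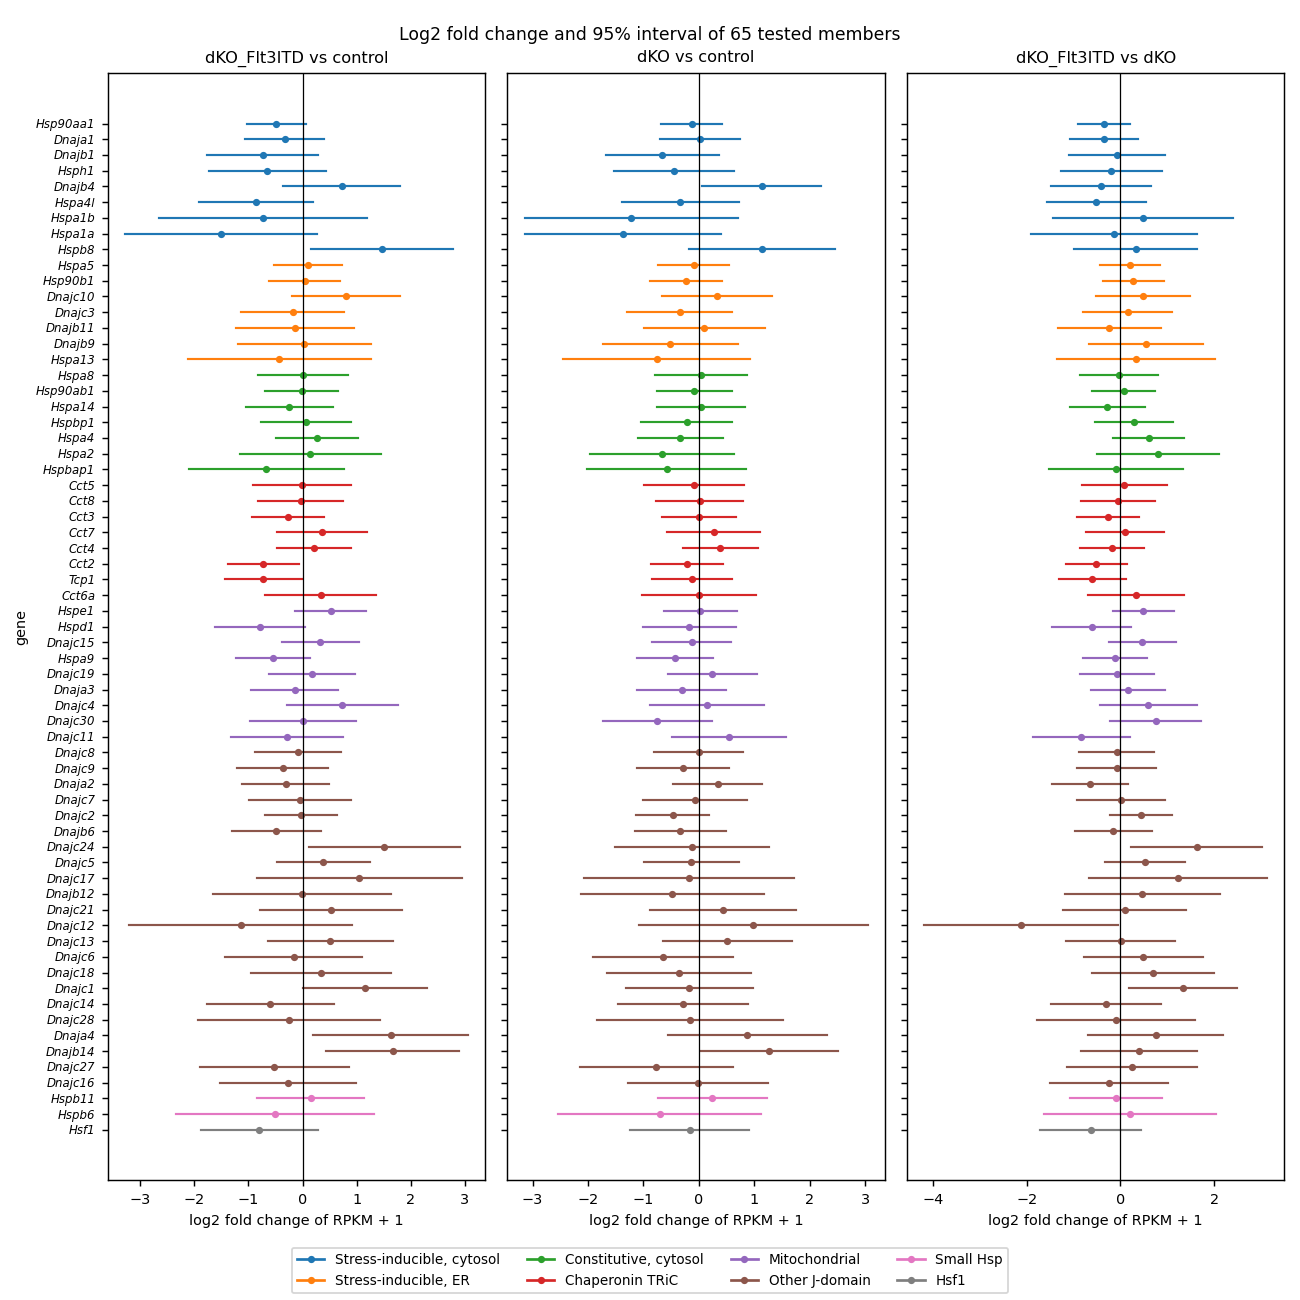
Log2 fold change of RPKM + 1 (x axis) with its 95% interval (line) for each of the 65 tested members (rows, ordered by class and mean level, coloured by class), in 3 panels for dKO_Flt3ITD vs control, dKO vs control and dKO_Flt3ITD vs dKO. Most intervals cross the line at 0, and no member passed the adjusted threshold.

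The members spanned a wide range of levels. Hspa8, the constitutive cytosolic Hsp70, had the highest mean over the 12 libraries at 2357 RPKM, followed by Hsp90ab1, the constitutive Hsp90, at 892 RPKM, Cct5 at 469, Hspe1 at 370.0 and Hsp90aa1, the inducible Hsp90, at 329 RPKM. These 5 genes held 50.6% to 62.6% of the summed RPKM of all members, and Hspa8 alone 18.7% to 38.8%. At the other end Dnajb2, Dnajb3, Dnajb5, Dnajb13, Dnajc25, Hspa1l, Hspa12b, Hspb2 and Hspb7 did not reach the filter and were not tested. All members together made up 0.809% to 1.29% of the table's summed RPKM in dKO_Flt3ITD, 0.700% to 1.62% in dKO and 1.02% to 1.61% in control, so the groups overlapped.

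**Figure D2:**
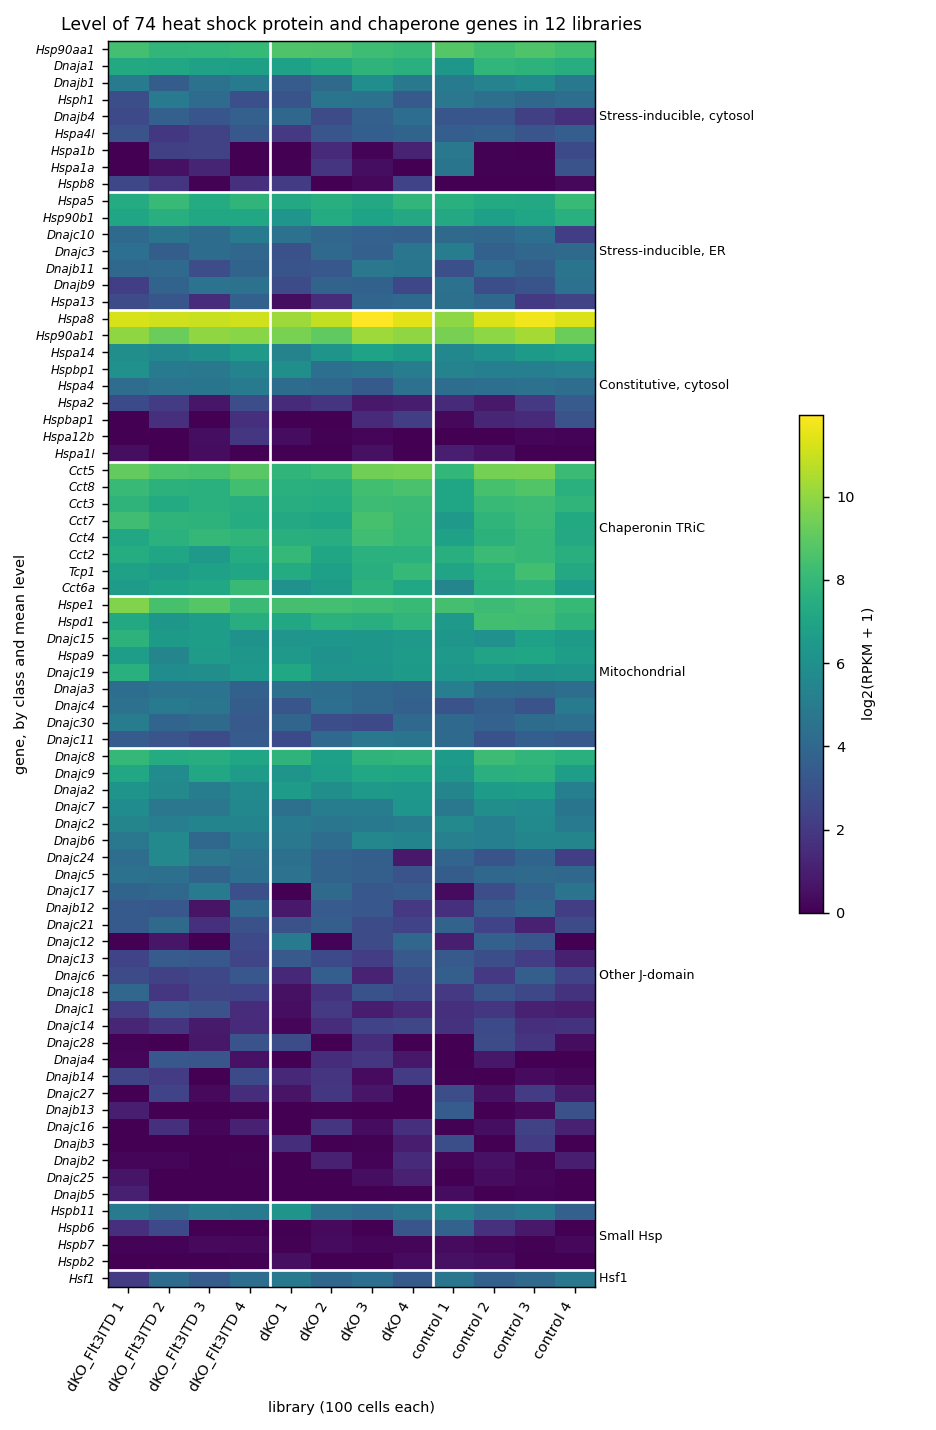
Level of each of the 74 members (rows, grouped by class and ordered by mean level) in each of the 12 libraries (columns: dKO_Flt3ITD, dKO, control), as log2(RPKM + 1) in colour. Hspa8 and Hsp90ab1 are the brightest rows in every group, and Hspa1a and Hspa1b are brightest in control 1 and control 4, with Hspa1b in dKO_Flt3ITD 2 and 3 nearly as bright as in control 4.

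The cytosolic stress-inducible members were examined first. Hsf1, the transcription factor that switches on the heat shock response, had 3.31, 17.8, 10.1 and 19.2 RPKM in dKO_Flt3ITD, 27.7, 15.7, 19.7 and 9.55 in dKO and 24.8, 12.3, 16.4 and 26.9 in control. The groups overlapped, and dKO_Flt3ITD differed from control by a log2 fold change of -0.80 with a limma Benjamini-Hochberg adjusted p of 0.535. Hsf1 acts through release and phosphorylation of its protein, which these data do not measure.

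Hspa1a and Hspa1b encode the heat-inducible Hsp70 and are near-identical neighbours on chromosome 17 (34969359 to 34972156 and 34956429 to 34959238, GRCm38.p6). Reads that match both copies may have been dropped or given to the wrong copy in the authors' counting, so each value is uncertain. Hspa1a had 0, 0.460, 1.36 and 0 RPKM in dKO_Flt3ITD, 0.0642, 2.46, 0.355 and 0 in dKO, and 24.1, 0.0359, 0.0430 and 7.31 in control. Behind these values stood 0, 24, 94 and 0 reads in dKO_Flt3ITD, 3, 105, 28 and 0 in dKO, and 1831, 2, 3 and 591 in control. Hspa1b had 0, 3.78, 4.17 and 0 RPKM in dKO_Flt3ITD, 0, 1.66, 0.0757 and 1.26 in dKO, and 26.3, 0.0357, 0.0143 and 5.54 in control. Both copies were thus highest in the same 2 control libraries, control 1 and control 4, and near 0 in control 2 and control 3. Hspa1b was also split within dKO_Flt3ITD, with replicates 2 and 3 close to control 4 and no read of either gene in replicates 1 and 4. Against control, dKO_Flt3ITD had a log2 fold change of -1.51 for Hspa1a and -0.73 for Hspa1b, with limma Benjamini-Hochberg adjusted p of 0.456 and 0.791. Without control 1 these were -0.61 for Hspa1a and 0.23 for Hspa1b, with adjusted p of 0.750 and 0.931 from the same limma Benjamini-Hochberg procedure, so the direction for Hspa1b rested on that library. For Hspa1a in dKO over control the log2 fold change was -1.38, and -0.48 without control 1.

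Control 1, where the Hsp70 pair was highest, was also the library with the most immediate early RNA. The 13 genes in the table of a list of immediate early and dissociation stress genes, such as Fos, Jun and Egr1, summed to 108, 82.1, 180 and 184 RPKM in dKO_Flt3ITD, 198, 297, 309 and 347 in dKO, and 886, 421, 275.5 and 475 in control. Control 4, with the second highest Hspa1a, had the second highest sum as well. Not all libraries followed this order. Control 2, with a sum of 421 RPKM, had 0.0359 RPKM of Hspa1a, and dKO_Flt3ITD 2, with the lowest sum, had 3.78 RPKM of Hspa1b. Of the 13 genes 3 fell in dKO_Flt3ITD against control (Fos, Jun and Zfp36), where 54 of the 10690 genes tested fell. At an unadjusted p under 0.05 in limma there were 8 of the 13, beside 13.4% of all genes. In the other comparisons 0 of the 13 passed. Voom called 0 of them in each comparison, but only 27, 5 and 0 of all genes in dKO_Flt3ITD against control, dKO against control and dKO_Flt3ITD against dKO. The part of tissue handling or cell sorting in the Hsp70 values was not tested.

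Hsp90aa1, the inducible of the cytosolic Hsp90 genes, was abundant in every library and had the smallest spread of the members with a mean of at least 5 RPKM, a within-group SD of 0.25 on the log2 scale. It had 333, 235, 244 and 258 RPKM in dKO_Flt3ITD, 401, 393, 302 and 279 in dKO, and 448, 323, 410 and 320 in control. Of the dKO_Flt3ITD libraries only replicate 1 reached into the range of the controls, as did dKO 1 and dKO 2. The log2 fold change of dKO_Flt3ITD over control was -0.48 (SE 0.26) with a limma Benjamini-Hochberg adjusted p of 0.440 and a 95% interval of the ratio from 0.489 to 1.05. That of dKO over control was -0.13 with an interval from 0.625 to 1.34.

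The inducible J-domain partners of Hsp70 overlapped between genotypes. Dnajb1, the classical heat-inducible Hsp40, had 30.2, 10.5, 21.8 and 28.8 RPKM in dKO_Flt3ITD, 9.89, 16.9, 56.5 and 26.3 in dKO, and 30.6, 38.5, 51.8 and 27.9 in control. Dnaja1 had 153, 145, 116 and 111 RPKM in dKO_Flt3ITD, 114, 157, 220 and 191 in dKO, and 80.2, 237, 211 and 176 in control. The groups overlapped for both, and control 1, the highest library for Hspa1a, was the lowest for Dnaja1. Dnajb4, another J-domain partner, stood at 9.22 ± 3.11 RPKM in dKO_Flt3ITD, 13.1 ± 5.72 in dKO and 5.58 ± 3.10 in control (SD, n = 4 each). Its log2 fold change of dKO over control was 1.14 with an unadjusted p of 0.0391 and a limma Benjamini-Hochberg adjusted p of 0.493.

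Among the remaining inducible members, Hsph1, an Hsp110 nucleotide exchange factor, averaged 14.8 ± 10.7 RPKM in dKO_Flt3ITD, 15.9 ± 8.47 in dKO and 20.1 ± 4.66 in control (SD, n = 4 each). Hspa4l, of the same family, averaged 5.65 ± 2.68 RPKM in dKO_Flt3ITD, 8.90 ± 4.53 in dKO and 10.4 ± 1.75 in control. Hspb8, a small heat shock protein that works with the co-chaperone Bag3, had 5.03, 2.46, 0.0447 and 2.14 RPKM in dKO_Flt3ITD, 3.34, 0, 0.196 and 4.38 in dKO, and 0, 0, 0 and 0.191 in control. It reached the filter through mutant libraries alone, and dKO_Flt3ITD 3 and dKO 2 and 3 were as low as control. For Hspb8 the log2 fold change of dKO_Flt3ITD over control was 1.46, with a limma Benjamini-Hochberg adjusted p of 0.310.

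**Figure D3:**
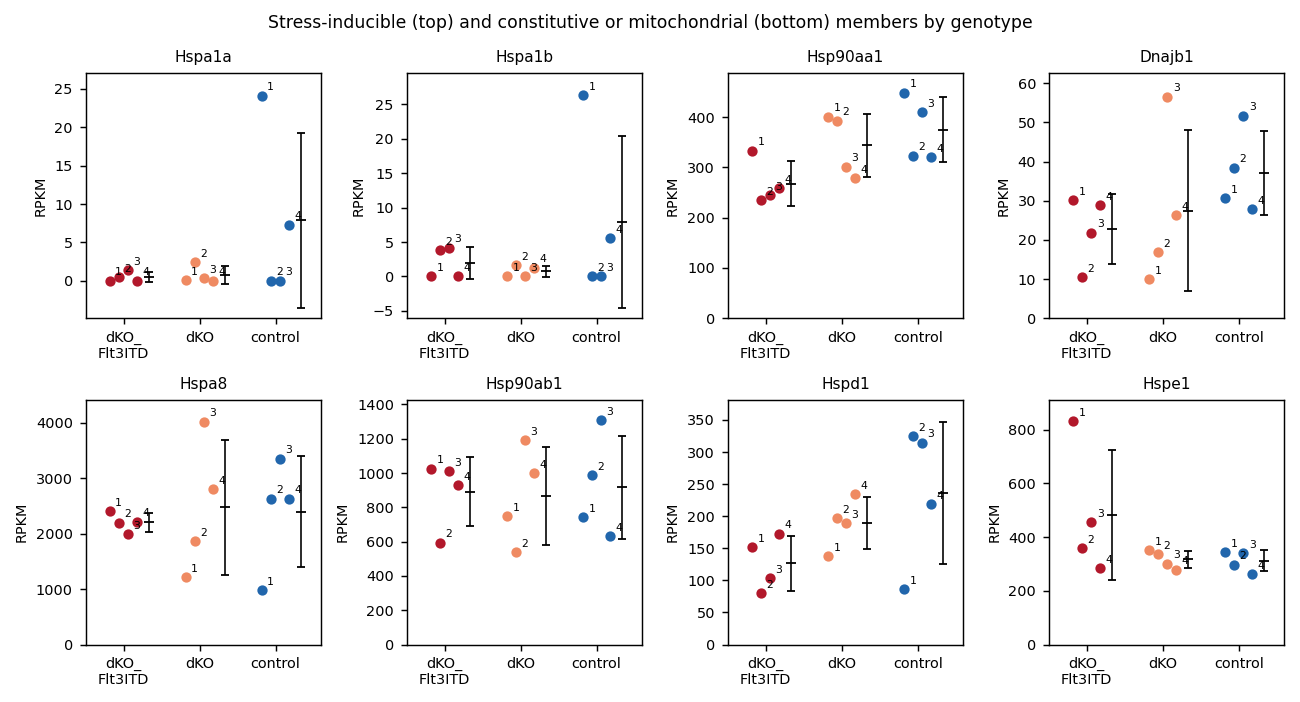
RPKM (y axis) of 4 stress-inducible members (top row: Hspa1a, Hspa1b, Hsp90aa1, Dnajb1) and 4 constitutive or mitochondrial members (bottom row: Hspa8, Hsp90ab1, Hspd1, Hspe1) in dKO_Flt3ITD, dKO and control. Points are libraries with their replicate number, bars the mean ± SD (n = 4). Hspa1a and Hspa1b are highest in control 1 and control 4, and Hspa8 spans 1209 to 4014 RPKM in dKO but 1989 to 2405 in dKO_Flt3ITD.

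Taken as a class, the 9 cytosolic stress-inducible genes summed to 540.2, 441, 417 and 427 RPKM in dKO_Flt3ITD, 554, 609, 624 and 544 in dKO, and 655, 639, 699 and 569 in control. All 4 dKO_Flt3ITD libraries lay below all 8 others. Hsp90aa1 made up 48.3% to 72.4% of this sum. Without it the groups overlapped, with 169 to 207 RPKM in dKO_Flt3ITD, 153 to 322 in dKO and 206.7 to 316 in control. The overlap with control was that of dKO_Flt3ITD 1 at 207 RPKM and control 1 at 206.7. Without Dnaja1 as well the sums were 54.35 to 60.59 RPKM in dKO_Flt3ITD, 39.42 to 102.1 in dKO and 72.96 to 126.4 in control. All dKO_Flt3ITD libraries then lay below all controls and within the range of dKO. As a share of the table's summed RPKM the class held 0.0504% to 0.0741% in dKO_Flt3ITD, 0.0668% to 0.110% in dKO and 0.0953% to 0.127% in control. The median log2 fold change of the 9 genes was -0.65 in dKO_Flt3ITD over control, with 7 of 9 negative, against a median of 0.00 over all genes tested, and -0.34 in dKO over control, with 6 of 9 negative, against 0.01 over all genes. Without control 1, dKO 1 and dKO_Flt3ITD 1 the median was -0.46 in dKO_Flt3ITD over control and -0.05 in dKO over control. The immediate early sums given above were also lower in all dKO_Flt3ITD libraries than in any dKO or control library, and their relation to the class was not tested.

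**Figure D4:**
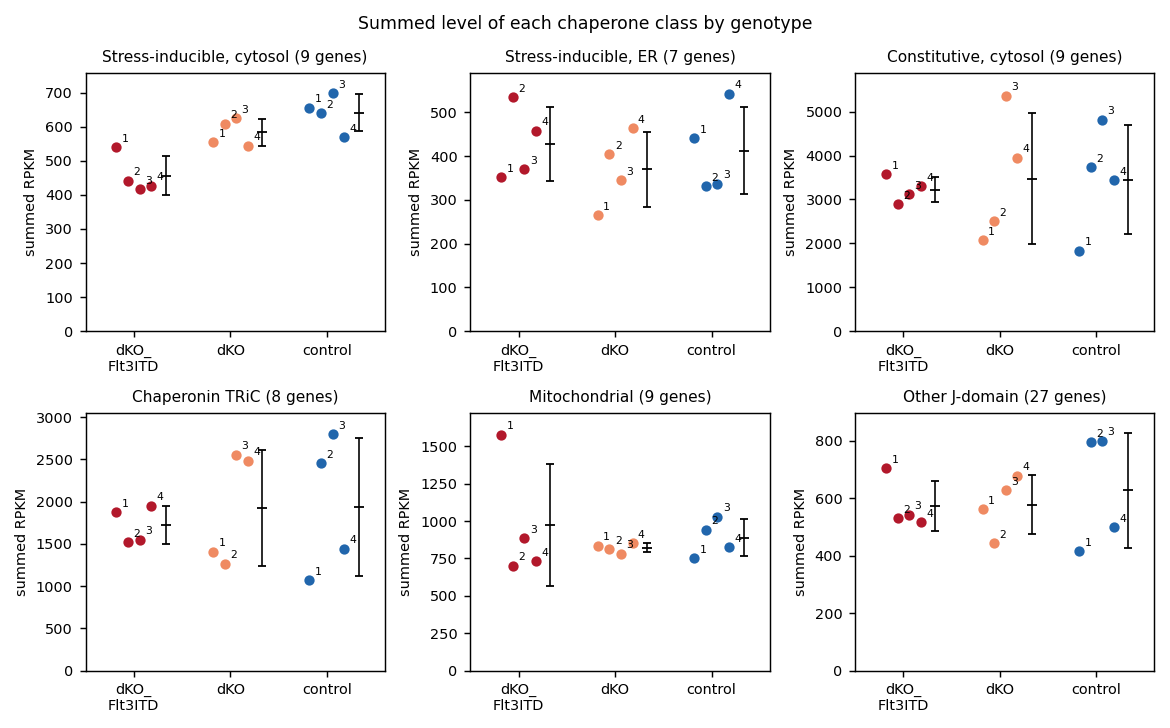
Summed RPKM (y axis) of 6 chaperone classes, one panel each with its number of genes, in dKO_Flt3ITD, dKO and control. Points are libraries with their replicate number, bars the mean ± SD (n = 4). The cytosolic stress-inducible sum is 417 to 540.2 RPKM in dKO_Flt3ITD and 569 to 699 in control, while in the other 5 panels these groups overlap.

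The ER stress-inducible members overlapped between genotypes. Hspa5 (BiP), the Hsp70 of the ER and the usual readout of the unfolded protein response, had 163, 275, 165 and 225 RPKM in dKO_Flt3ITD, 148, 188, 148 and 233 in dKO, and 196, 157, 147 and 277 in control. Hsp90b1, the ER Hsp90, had 129, 188, 138 and 141 RPKM in dKO_Flt3ITD, 74.3, 162, 121 and 150.1 in dKO, and 148, 109, 134 and 196 in control. The ranges overlapped for both genes. The 95% interval of the ratio of dKO_Flt3ITD to control ran from 0.691 to 1.67 for Hspa5 and from 0.653 to 1.62 for Hsp90b1, and of dKO to control from 0.603 to 1.45 for Hspa5 and from 0.540 to 1.34 for Hsp90b1.

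The ER members with J domains, and Hspa13, an Hsp70-like ATPase of microsomes, were lower and more scattered. Dnajb9, a target of the unfolded protein response, ranged from 3.64 to 22.8 RPKM in dKO_Flt3ITD, 4.95 to 13.2 in dKO and 6.46 to 21.4 in control. Dnajc3, which restrains the ER stress kinases, ranged from 10.5 to 19.7 RPKM in dKO_Flt3ITD, 6.85 to 24.6 in dKO and 12.1 to 32.2 in control. For Dnajc10, an ER disulfide reductase, the mean was 21.7 ± 6.20 RPKM in dKO_Flt3ITD, 15.3 ± 4.73 in dKO and 13.5 ± 6.95 in control (SD, n = 4 each). Dnajb11, a co-chaperone of BiP, averaged 12.7 ± 4.60 RPKM in dKO_Flt3ITD, 16.4 ± 9.72 in dKO and 14.7 ± 7.44 in control, and Hspa13 spanned 0.374 to 20.7 RPKM over the 12 libraries. The class median of the log2 fold change was 0.04 in dKO_Flt3ITD over control (4 of 7 positive), -0.24 in dKO over control (2 of 7) and 0.28 in dKO_Flt3ITD over dKO (6 of 7). The first became -0.22 when libraries were scaled to the same RPKM sum, and the second 0.07 without the 3 libraries numbered 1. The third became 0.04, with 4 of 7 positive, without dKO 1.

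The constitutive cytosolic class held the most abundant members, Hspa8 and Hsp90ab1, whose fold changes over control were near 0 with all libraries included. Hspa8, also called Hsc70, had 2405, 2198, 1989 and 2212 RPKM in dKO_Flt3ITD, 1209, 1863, 4014 and 2803 in dKO, and 982, 2626, 3352 and 2627 in control. The mean was 2201 ± 170 RPKM in dKO_Flt3ITD, 2472 ± 1218 in dKO and 2397 ± 1003 in control (SD, n = 4 each), so the dKO_Flt3ITD libraries lay close together and the other groups far apart. Log2 fold changes were 0.01 in dKO_Flt3ITD over control and 0.04 in dKO over control, with 95% intervals of the ratio from 0.566 to 1.79 and from 0.578 to 1.83. Without control 1, the lowest library for Hspa8, they were -0.38 in dKO_Flt3ITD over control and -0.34 in dKO over control. Hsp90ab1 had 1025, 594, 1011 and 929 RPKM in dKO_Flt3ITD, 748, 536, 1191 and 998 in dKO, and 741, 986, 1309 and 630.2 in control. Its interval for dKO_Flt3ITD over control ran from 0.617 to 1.58.

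The ratio of the inducible to the constitutive Hsp90, Hsp90aa1 over Hsp90ab1, was 0.242 to 0.396 in dKO_Flt3ITD, 0.253 to 0.733 in dKO and 0.313 to 0.605 in control, and stayed below 1 in each library. Hspa4, a constitutive Hsp110, was among the least variable members, with 24.1 ± 5.20 RPKM in dKO_Flt3ITD, 15.9 ± 5.06 in dKO and 19.5 ± 0.995 in control (SD, n = 4 each). Hspa14, an Hsp70 that assists new chains at the ribosome, averaged 63.0 ± 15.5 RPKM in dKO_Flt3ITD, 81.2 ± 35.1 in dKO and 76.8 ± 27.2 in control. Hspbp1, a nucleotide exchange factor for Hsp70, averaged 40.9 ± 18.1 RPKM in dKO_Flt3ITD, 34.4 ± 18.7 in dKO and 36.7 ± 2.48 in control. Summed over its 9 genes the constitutive class had 2898 to 3579 RPKM in dKO_Flt3ITD, 2078 to 5365 in dKO and 1832 to 4812 in control, and Hspa8 and Hsp90ab1 made up most of that sum. The median log2 fold change of the 7 tested genes was 0.01 in dKO_Flt3ITD over control (4 of 7 positive), -0.22 in dKO over control (2 of 7) and 0.07 in dKO_Flt3ITD over dKO (4 of 7). Without the 3 libraries numbered 1 these medians were -0.21 in dKO_Flt3ITD over control, -0.41 in dKO over control and -0.06 in dKO_Flt3ITD over dKO. Hspa2, an Hsp70 best known from the testis, had the most negative value in dKO over control, -0.67, and the most positive in dKO_Flt3ITD over dKO, 0.81, with limma Benjamini-Hochberg adjusted p of 0.866 and 0.810.

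TRiC is the chaperonin that folds actin and tubulin, built as a double ring of 8 different subunits in equal number, and all 8 were detected in each library. Cct5 was the most abundant subunit in 11 of 12 libraries, with 539, 384, 363 and 484 RPKM in dKO_Flt3ITD, 228, 272, 659 and 706 in dKO, and 246, 718, 740.2 and 287 in control. Cct6a was the least abundant in 8 libraries, and the highest subunit exceeded the lowest by 2.82 to 5.69 times within a library. The subunit messages were therefore not at equal levels, although RPKM from full-length libraries also depends on how evenly each transcript was covered.

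Cct2 was the only subunit without overlap between 2 groups. It had 169.5, 131, 84.2 and 169.4 RPKM in dKO_Flt3ITD, 247, 134, 201 and 198 in dKO, and 182, 286, 249 and 184 in control. All dKO_Flt3ITD libraries lay below all controls, and dKO overlapped both. The log2 fold change of dKO_Flt3ITD over control was -0.72 (SE 0.31), with an unadjusted p of 0.0324, a limma Benjamini-Hochberg adjusted p of 0.315 and a 95% interval of the ratio from 0.385 to 0.954. Tcp1, the alpha subunit, had 116, 93.7, 113 and 129 RPKM in dKO_Flt3ITD, 164, 108, 187 and 256 in dKO, and 126, 197, 327 and 147 in control. Its highest dKO_Flt3ITD library was just above its lowest control. For Tcp1 the log2 fold change was -0.72 (SE 0.34), with an unadjusted p of 0.0489 and a limma Benjamini-Hochberg adjusted p of 0.370.

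Without control 1 the log2 fold change was -0.82 for Cct2 and -0.91 for Tcp1, with limma Benjamini-Hochberg adjusted p of 0.293 and 0.263. Of the other 6 subunits Cct7, Cct4 and Cct6a had positive and Cct3, Cct5 and Cct8 negative log2 fold changes in dKO_Flt3ITD over control, all with intervals that cross 0. The class median was -0.02 in dKO_Flt3ITD over control and 0.01 in dKO over control. Without control 1 it was -0.31 in dKO_Flt3ITD over control and -0.29 in dKO over control. Control 1 was the lowest of the 12 libraries for 5 of 8 subunits (62.5%), while it was lowest for 15.7% of the 9215 tested genes above 0 in all libraries.

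**Figure D5:**
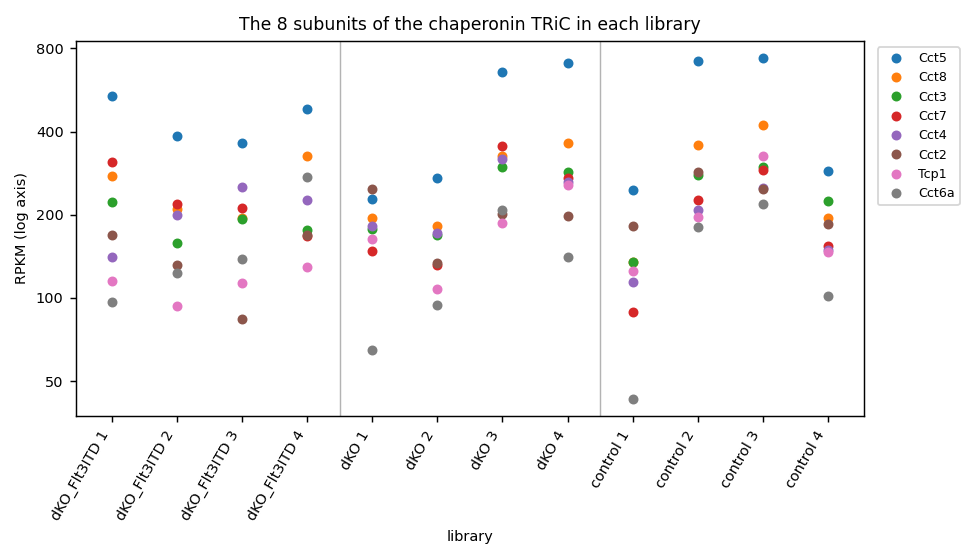
RPKM (y axis, log scale) of the 8 TRiC subunits (colours) in each library (x axis: dKO_Flt3ITD, dKO, control, separated by grey lines). Cct5 is the highest subunit in 11 of 12 libraries, Cct6a the lowest in 8, and 5 of 8 subunits have their lowest value in control 1.

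The mitochondrial pair Hspd1 and Hspe1, encoded head to head on chromosome 1 (55077833 to 55088243 and 55088148 to 55091317) across the shared promoter shown above, did not keep a fixed ratio. Hspd1 (Hsp60) had 151, 79.6, 103 and 172 RPKM in dKO_Flt3ITD, 137, 197, 189 and 234 in dKO, and 86.3, 325, 314 and 219 in control. Hspe1 (Hsp10), the lid of the Hsp60 chamber, had 830.5, 359, 456 and 284 RPKM in dKO_Flt3ITD, 351, 336, 301 and 279 in dKO, and 344, 297, 341 and 262 in control. Hspe1 was steady in dKO and control and spread widely in dKO_Flt3ITD, where replicate 1 was the highest. The ratio of Hspd1 to Hspe1 was 0.182, 0.222, 0.226 and 0.608 in dKO_Flt3ITD, 0.391, 0.586, 0.627 and 0.839 in dKO, and 0.251, 1.10, 0.923 and 0.835 in control. In dKO_Flt3ITD 3 of 4 libraries lay below every dKO and control library, and control 1 was the lowest of the rest. Relative to control, dKO_Flt3ITD had log2 fold changes of -0.79 for Hspd1 and 0.52 for Hspe1, with limma Benjamini-Hochberg adjusted p of 0.401 and 0.50. Without control 1, the lowest control library for Hspd1, that of Hspd1 was -1.21 with a limma Benjamini-Hochberg adjusted p of 0.103.

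Hspa9, the mitochondrial Hsp70, averaged 80.5 ± 27.3 RPKM in dKO_Flt3ITD, 83.5 ± 12.9 in dKO and 113 ± 21.5 in control (SD, n = 4 each). Its log2 fold change of dKO_Flt3ITD over control was -0.55 with a limma Benjamini-Hochberg adjusted p of 0.493. Dnajc19 and Dnajc15, J-domain proteins of the mitochondrial inner membrane, had their highest values in dKO_Flt3ITD 1, at 194 and 213 RPKM, where Hspe1 was also highest. In the other 11 libraries Dnajc19 ranged no higher than 138 RPKM, in dKO 1. dKO_Flt3ITD 1 was the highest library for 4 of the 9 mitochondrial members (44.4%), against 14.5% of all tested genes, and the class summed to 1578, 702, 885 and 731 RPKM in dKO_Flt3ITD, 836, 812, 783 and 851 in dKO, and 751, 943, 1030 and 827 in control. The table's summed RPKM was itself highest in dKO_Flt3ITD 1, at 1.07104e+06, with dKO 1 next at 829421. The levels given here are not scaled to that sum. The class median of the log2 fold change was 0.00 in dKO_Flt3ITD over control and -0.13 in dKO over control.

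The other J-domain proteins are a mixed set of 27 genes, of which 22 were tested. Dnajc24, a protein needed to make diphthamide on translation elongation factor 2, had 18.2, 49.1, 25.9 and 21.9 RPKM in dKO_Flt3ITD, 20.7, 12.7, 11.5 and 0.762 in dKO, and 14.0, 7.71, 13.7 and 3.73 in control. All dKO_Flt3ITD libraries lay above all controls, and 3 of 4 above all dKO libraries. In dKO_Flt3ITD it had a log2 fold change of 1.51 over control and 1.63 over dKO, with unadjusted p of 0.0359 and 0.0248 and limma Benjamini-Hochberg adjusted p of 0.328 and 0.581. Dnajc2, a ribosome-associated J-domain protein, had 42.4, 33.7, 40.7 and 40.9 RPKM in dKO_Flt3ITD, 29.2, 25.3, 27.6 and 32.7 in dKO, and 49.4, 34.7, 52.0 and 28.9 in control. It was above all dKO libraries in each dKO_Flt3ITD library, by a log2 fold change of 0.45 with a limma Benjamini-Hochberg adjusted p of 0.789, while control overlapped both groups.

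Members with low levels gave the remaining small p-values, and they were picked out after their values were seen. Dnajb14, an ER membrane J-domain protein, had 4.46, 3.39, 0 and 5.41 RPKM in dKO_Flt3ITD, 1.62, 2.62, 0.287 and 3.19 in dKO, and 0.0398, 0, 0.282 and 0.131 in control. It reached the filter through the mutant libraries alone. All dKO libraries lay above all controls, but by little for dKO 3, which had 15 reads where control 3 had 13, and dKO_Flt3ITD 3 had none. Over control its log2 fold change was 1.67 in dKO_Flt3ITD and 1.27 in dKO, with limma Benjamini-Hochberg adjusted p of 0.201 and 0.517. Dnaja4 had 0.171, 8.59, 8.10 and 0.521 RPKM in dKO_Flt3ITD, 0, 1.99, 2.76 and 0.715 in dKO, and 0, 0.701, 0 and 0 in control. It too reached the filter through the mutant libraries alone, and its limma Benjamini-Hochberg adjusted p was 0.299 in dKO_Flt3ITD against control. Dnajc1, an ER J-domain protein, averaged 5.64 ± 3.64 RPKM in dKO_Flt3ITD, 1.53 ± 1.19 in dKO and 1.72 ± 0.872 in control (SD, n = 4 each). Its limma Benjamini-Hochberg adjusted p was 0.367 against control and 0.585 against dKO.

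Dnajc12, which stabilises the aromatic amino acid hydroxylases, had the largest spread of all members with a mean of at least 5 RPKM. It had 0, 0.629, 0 and 5.19 RPKM in dKO_Flt3ITD, 30.6, 0.0962, 5.71 and 14.7 in dKO, and 1.03, 11.6, 8.19 and 0.0254 in control. Each genotype thus held libraries near 0 and libraries well above it, and the log2 fold change of -2.12 in dKO_Flt3ITD over dKO had a limma Benjamini-Hochberg adjusted p of 0.641. The abundant members of the set were Dnajc8, a splicing-associated protein, and Dnajc9, a histone chaperone. Dnajc8 averaged 181 ± 51.8 RPKM in dKO_Flt3ITD, 195 ± 59.5 in dKO and 204 ± 86.7 in control, and Dnajc9 averaged 111 ± 44.2 RPKM in dKO_Flt3ITD, 113 ± 32.0 in dKO and 144 ± 62.8 in control (SD, n = 4 each). The class median was -0.04 in dKO_Flt3ITD over control (9 of 22 positive) and -0.15 in dKO over control (6 of 22), and became 0.10 in dKO over control without dKO 1.

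The members with numbered Hspb symbols outside the inducible class were grouped by symbol alone. Of these Hspb11 was the best detected, at 27.1 ± 5.78 RPKM in dKO_Flt3ITD, 33.6 ± 25.6 in dKO and 26.2 ± 12.2 in control (SD, n = 4 each). Hspb6 was scattered between 0 and 12.9 RPKM, and Hspb2 and Hspb7 stayed under 0.5 RPKM in all 12 libraries. The spread within groups was close to that of other genes of like level. Members with means of 1 to 10 RPKM had a median within-group SD of 0.94 on the log2 scale, against 0.85 for all genes of that level, those of 10 to 100 RPKM 0.61 against 0.66, and those above 100 RPKM 0.48 against 0.49.

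Partners of these chaperones that do not carry their names also had no calls. Of 27 tested co-chaperones and cofactors, such as Stip1, Bag3, Cdc37 and the prefoldins, 0 passed in each of the 3 comparisons, with a median log2 fold change of 0.21 in dKO_Flt3ITD over control, 0.07 in dKO over control and 0.13 in dKO_Flt3ITD over dKO. Of 8 further heat shock response genes, 3 of them also in the list before, 0 passed, with a median of -0.13 in dKO_Flt3ITD over control, 0.15 in dKO over control and -0.31 in dKO_Flt3ITD over dKO. Of 16 further genes of the unfolded protein response, such as Xbp1, Atf4 and Ddit3, 0 passed, with a median of 0.33 in dKO_Flt3ITD over control, 0.25 in dKO over control and 0.11 in dKO_Flt3ITD over dKO. At an unadjusted p under 0.05 in limma there were 1 co-chaperone, 1 heat shock response gene and 3 genes of the unfolded protein response in dKO_Flt3ITD against control, where 13.4% of all genes reached it. In dKO against control it was 1 co-chaperone, beside 9.18% of all genes. In dKO_Flt3ITD against dKO there were 2 co-chaperones, 1 heat shock response gene and 2 genes of the unfolded protein response, beside 7.71% of all genes. Voom called 0 genes of these lists in each comparison. Of all genes it called only 27 in dKO_Flt3ITD against control, 5 in dKO against control and 0 in dKO_Flt3ITD against dKO.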

How the data were processed

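Messenger RNA of 100 sorted cells per library was measured in 12 libraries, 4 per genotype. Per the submitters' processing notes, TopHat2 2.0.10, HTSeq 0.5.4p5 and SAMtools 0.1.19 were used with mm10, a mouse build. The authors deposited RPKM values for 13016 genes; which total they divided by is not given in the sources used here. Low RPKM values rose in steps of 1 read, and within 0.001 of a whole number this gave whole reads for all 13016 genes, 13623436 to 33985972 per library. Reads amplified from few cells are not independent molecules, so read numbers bound counting error only.

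Groups came from the sample titles. The 10690 genes that reached 1 RPKM in 4 or more libraries entered limma 3.58.1 (R 4.3.3) as log2(RPKM + 1). A trend of variance with level was allowed, with 1 fit for all libraries and Benjamini-Hochberg adjustment at 0.05. The scale understates changes of low genes. Alternatives were a pseudocount of 0.1, no filter, an equal RPKM sum or median per library, no trend, a replicate term, only the 8 libraries compared, voom on the recovered reads, and leaving out libraries. The fit was tested on simulated data.

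Members and lists were chosen with earlier results of these data known. Hspb1, Hspa12a, Hspb3, Hspb9 and Cct6b were not analysed here. The naming rule covers Ezh2 and Runx1, called members, all inducible, TRiC and regulator genes, Hspd1, Hspe1, Hspa9, Hspa8, Hsp90ab1, Hspa4, the 10 highest members, and per comparison the 5 largest changes each way at 5 RPKM or more, with the 5 largest and smallest spreads. Members outside this rule were named after their values were seen. Dnaja2, Dnajb12, Dnajc4, Dnajc11, Dnajc13, Dnajc17, Dnajc21 and Dnajc30 fall under the rule but are shown only in the figures. Promoter windows and positions are RefSeq's (GRCm38.p6, all 74 members placed). The run of 3 heat shock triplets was added after the other motifs. Python 3.11.15, numpy 2.4.6, pandas 2.3.3 and matplotlib 3.10.9 were used.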

Additional observations from a re-analysis of the deposited data

Results flagged for a closer look

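In groups of 4 libraries, the highest or lowest value was flagged where its gap to the next took more of the group's range than Dixon's 95% critical value for 4 values, which chance does in about 1 of 20 groups; 10 of 217 groups were flagged. In dKO_Flt3ITD, Dnajc12 was highest in replicate 4 at 5.19 RPKM, Dnajc28 in replicate 4 at 7.32 RPKM and Dnajc18 in replicate 1 at 14.3 RPKM. The summed level of the other J-domain proteins was also highest in dKO_Flt3ITD 1, at 705 RPKM. That library also had the highest summed RPKM of the whole table. In dKO, Hspa1a was highest in replicate 2 at 2.46 RPKM, Hspb6 in replicate 4 at 8.10 RPKM and Hspb11 in replicate 1 at 71.9 RPKM, while Dnajc8 was lowest in replicate 2 at 106 RPKM. In control, Dnaja3 was highest in control 1 at 34.3 RPKM and Dnajc14 in control 2 at 5.35 RPKM.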

How the results depend on the processing

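The number of members called was 0 in all settings and comparisons except dKO_Flt3ITD against control without dKO_Flt3ITD 3, where it was 1 (Dnajb14), a range of 0 to 1 with each library left out. Over all genes, dKO_Flt3ITD against control gave 160 calls, with 91 without the filter, 27 with voom, 105 without the 3 libraries numbered 1 and 94 to 187 with each library left out. For dKO against control the count was 109, with 64 without the filter, 5 with voom, 45 without the 3 libraries numbered 1 and 58 to 150 with each library left out. For dKO_Flt3ITD against dKO it was 0, with 1 without the filter, 2 at an equal RPKM sum, 1 at an equal median, 1 with only the 8 libraries compared, 1 without the 3 libraries numbered 1 and 0 to 6 with each library left out. The cause was not tested. The labels do not say that replicate numbers pair libraries. Over all tested genes same-numbered libraries did not deviate together (r from -0.147 to 0.126). The members' share of reads was lowest in the library numbered 1 of each group, at 1.45% in dKO_Flt3ITD, 1.11% in dKO and 1.37% in control. So was their share of summed RPKM, at 0.809%, 0.700% and 1.02%. Their summed RPKM in dKO_Flt3ITD 1 was the highest of its group, at 8662. A relation to the replicate number was not tested. With the replicate number as a block, 116, 85 and 0 genes and 0 members were called in dKO_Flt3ITD against control, dKO against control and dKO_Flt3ITD against dKO. Under alternatives there were 4095 log2 fold changes of the 65 tested members. Of these, 25 moved by more than the within-group SD without a call, 17 of them with voom and 6 with the pseudocount of 0.1. The sign was opposite for 304, none of them called. Many of the 4095 could not move. No filter, no trend, a replicate term, only the 8 libraries compared, or leaving out a library of the group not compared do not alter a fold change. The share that moved is therefore no measure of stability. An equal RPKM sum shifted the median of all genes by -0.21 in dKO_Flt3ITD over control and by -0.11 in dKO over control. The median of the cytosolic stress-inducible class in dKO_Flt3ITD over control was negative in every setting, from -0.84 at an equal RPKM sum to -0.38 without dKO_Flt3ITD 4. In the settings that do not alter a fold change it had to stay at the main value of -0.65, and the others share most of their libraries. In dKO over control the median was -0.34, and -0.05 without the 3 libraries numbered 1. With 4 libraries of 100 cells a group, differences under about the interval widths given could not be detected.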
